A study of Gallus gallus with 12 samples.

Results

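Bile acid synthesis, transport and sensing were examined through 7 genes in the liver and abdominal fat of chickens. The genes were taken by their symbol, and 6 of the 7 were matched among the 18332 genes listed for each sample. These are CYP7A1 (gene 414834) and BAAT (gene 769879) for synthesis, ABCB11 (gene 424170) for transport, and NR1H4 (gene 373902), NR0B2 (gene 768353) and FGFR4 (gene 395603) for sensing. SLC10A1, the main uptake carrier for bile salts from the blood in mammals, is not analysed here. The birds were female dwarf Xinghua chickens, 8 weeks of age at the start, and all of them carried the sex-linked dw mutation of the growth hormone receptor gene. They were kept on a high-fat diet (HFD) or a normal diet (ND) for 2 weeks. RNA was sequenced from HFD liver, ND liver, HFD abdominal fat and ND abdominal fat, with 3 birds in each group and 12 samples in all. The 3 HFD birds were those with the higher and the 3 ND birds those with the lower abdominal fat rate among 6 per diet, so diet and selection for fatness cannot be told apart.

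Bile acids are made from cholesterol in hepatocytes and pass with the bile into the gut, where they help to dissolve dietary fat. Most are taken up again and return to the liver. CYP7A1 catalyses the first and rate-limiting step of the classic pathway, and BAAT joins the finished acid to an amino acid. ABCB11 pumps bile salts into the bile canaliculus. NR1H4, the nuclear receptor also called FXR, is activated by bile acids and, in mammals, induces ABCB11 and the repressor NR0B2 (SHP), which lowers CYP7A1 transcription. FGFR4, with its partner KLB, receives the gut hormone FGF19, a further brake on CYP7A1 in mammals.

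The authors deposited FPKM values (sequenced fragments per unit of transcript length and of library size), which can be set side by side between genes. Between 10799 and 12492 genes per sample were at 1 FPKM or more. The summed FPKM of 7 hepatocyte markers, among them ALB and TTR, was 105466 to 121480 in HFD livers and 95142 to 118539 in ND livers, and that of 6 adipocyte markers was 12701 to 15611 in abdominal fat of either diet, so each tissue carried the markers of its label. ND fat replicate 2 stood apart, with ALB at 2887 FPKM, whereas the other 5 fat samples had 0.86 to 69.96 FPKM. In these bulk samples, fewer cells of a type and less RNA per cell cannot be told apart.

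The first comparison set the tissues against each other. All 6 genes were higher in each of the 6 livers than in each of the 6 fat samples. BAAT was at 62.8 to 91.3 FPKM in liver and at 0.47 to 2.33 FPKM in fat. FGFR4 ranged from 35.0 to 55.3 FPKM in liver and from 2.79 to 3.5 FPKM in fat, where it was the highest of the 6 genes in every sample. ABCB11 had 26.2 to 56.4 FPKM in liver, against 0.52 to 1.92 FPKM in fat. Outside ND fat replicate 2, NR1H4 did not exceed 0.06 FPKM in fat, NR0B2 did not exceed 0.08 FPKM and CYP7A1 did not exceed 0.03 FPKM, so these 3 genes were near the resolution of 2 decimals there. In limma over all 12 samples, on the log2(FPKM + 1) scale, which understates the change of genes this low in fat, the liver over fat difference was 5.31 for BAAT, 4.86 for NR0B2, 4.59 for CYP7A1, 4.55 for NR1H4, 4.28 for ABCB11 and 3.49 for FGFR4. Every adjusted p was at most 1.24e-07 (limma with Benjamini-Hochberg adjustment over 15442 genes). Of all genes tested, 16.4% were called higher in liver and 62.4% lower (adjusted p up to 0.05). Whether called or not, 11.4% were higher and 50.3% lower in liver without overlap between the tissues. With quantile normalization 5376 genes were called higher and 5673 lower, against 2528 and 9634 without it. The median gene was lower in liver by -0.52 on the log2 scale, and all 6 genes stayed higher in liver under every alternative, including the fit without ND fat replicate 2.

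**Figure D1:**
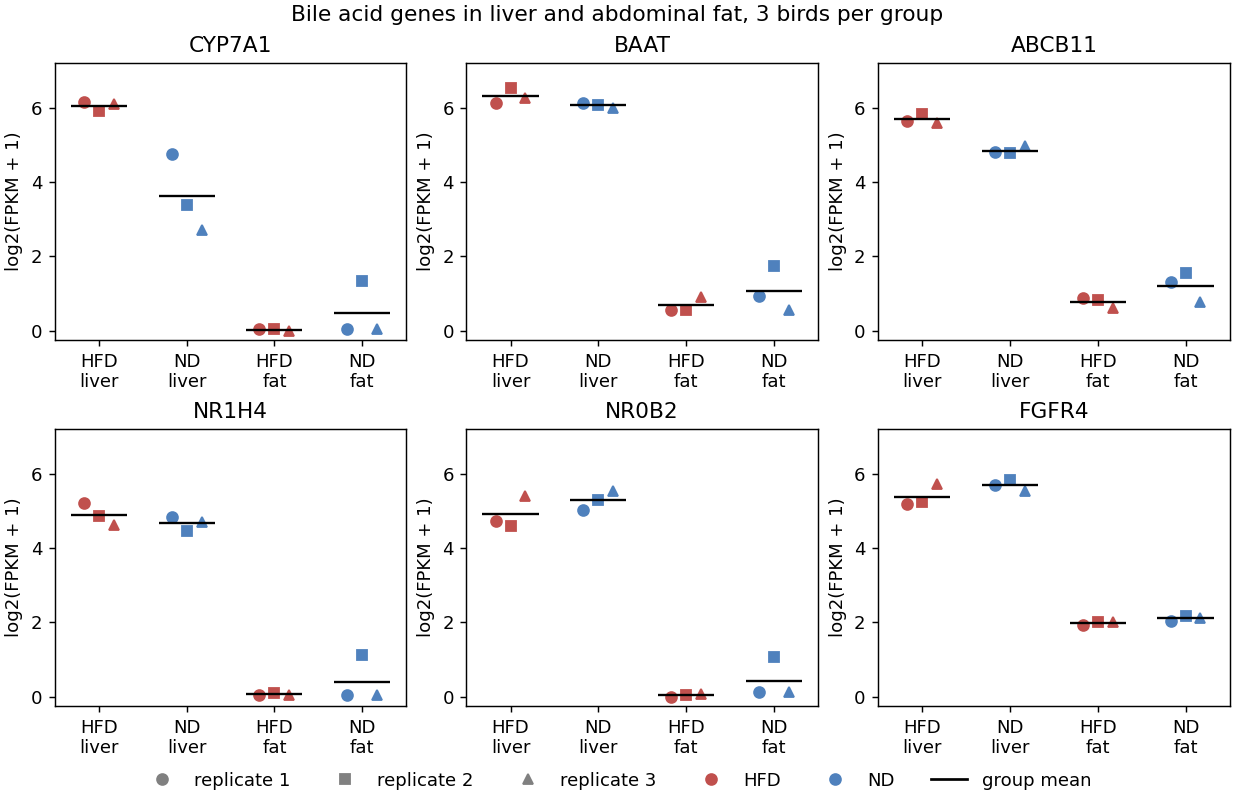
Expression of the 6 bile acid genes in each sample, as log2(FPKM + 1), in HFD liver, ND liver, HFD fat and ND fat. Each point is 1 sample, its shape gives the replicate number and the black line is the mean of the group. CYP7A1 and ABCB11 are higher in all 3 HFD livers than in all 3 ND livers, and ND fat replicate 2 is the highest fat sample for every gene shown.

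Other genes of the pathway, from lists of 56 synthesis, transport and sensing genes of which 49 were matched, followed the tissues less evenly. Of 46 entries tested, 36 were called higher and 4 lower in liver, beside 16.4% higher and 62.4% lower among all genes tested. ONECUT1 counts as 2 entries, since 2 gene IDs carry the symbol. The 4 that were higher in fat were CH25H, which makes 25-hydroxycholesterol, the efflux pumps ABCC3 and ABCC4, and NR1H3, the oxysterol receptor LXR alpha. CH25H averaged 0.257 FPKM in liver and 3.92 FPKM in fat, a log2 difference of -1.90 (adjusted p = 1.25e-05). NR1H3 averaged 43.8 FPKM in liver and 79.6 FPKM in fat (-0.87, adjusted p = 0.00083), with some overlap between samples. The median of all genes in this comparison was -0.52, so much of the NR1H3 difference was shared by genes at large. FGF19, which the gut supplies in mammals, did not exceed 0.05 FPKM in any sample.

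Next, the diets were compared within liver. CYP7A1 showed the widest difference of the 6 genes. It was at 70.25, 59.62 and 67.33 FPKM in HFD livers 1, 2 and 3 and at 25.93, 9.48 and 5.58 FPKM in ND livers 1, 2 and 3. The lowest HFD liver was thus more than double the highest ND liver. The means were 65.7 ± 5.49 FPKM in HFD and 13.7 ± 10.8 FPKM in ND (SD, n = 3 each), a ratio of 4.81. The HFD livers were close together, with a coefficient of variation of 8.35%, whereas it was 79.0% in ND livers, where the highest value was 4.65 times the lowest. The log2 fold change was 2.44 (standard error 0.46, 95% confidence interval 1.36 to 3.51). The unadjusted p of 0.00096 became 0.160 after Benjamini-Hochberg adjustment over the 14510 genes tested in limma, and so missed the threshold of 0.05. At that threshold 0% of all genes were called in liver, while 2012 genes had an unadjusted p under 0.05. When all 12 samples shared a single fit, which also took in the spread of the fat samples, the adjusted p of CYP7A1 was 0.0415. In fat, CYP7A1 did not exceed 0.03 FPKM outside ND fat replicate 2, so that spread says little about the spread between livers. Over all 15 alternatives the adjusted p of CYP7A1 lay between 0.0415 and 0.362. Leaving out 1 liver at a time gave log2 fold changes from 1.99, without ND liver replicate 3, to 3.00, without ND liver replicate 1. Along with ABCB11, CYP7A1 was 1 of 2 among the 6 genes to pass the threshold of the study's methods. That threshold is a log2 fold change of 0.5 or more in size and an unadjusted p up to 0.001. Of all genes, 0.4% passed it upward and 0.186% downward. The p used here is that of the limma fit, so passing does not repeat the study's own calls. The two-sided exact permutation test gave p = 0.1, the smallest it can give with 3 birds against 3.

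ABCB11 was the other gene of the 6 that separated the diets. Among all genes tested in liver, 14.3% were higher and 5.82% lower in HFD without overlap between the diets. HFD livers 1, 2 and 3 had 48.53, 56.39 and 46.82 FPKM, and ND livers 1, 2 and 3 had 26.83, 26.24 and 30.23 FPKM. Every HFD liver was above every ND liver, and both groups were narrow. The means of 50.6 ± 5.10 FPKM in HFD and 27.8 ± 2.15 FPKM in ND (SD, n = 3 each) gave a ratio of 1.82. The log2 fold change was 0.84 (standard error 0.12, 95% confidence interval 0.55 to 1.13), the unadjusted p was 0.00021, the 20th smallest in liver, and that after adjustment was 0.139, again from limma with Benjamini-Hochberg adjustment. Over the alternatives the log2 fold change was 0.76 to 0.90 and the adjusted p 0.0630 to 0.307.

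The other 4 genes overlapped between the diets in liver. BAAT, which had the highest mean of the 6 genes in either diet, was at 68.93, 91.27 and 76.03 FPKM in HFD livers and at 69.31, 65.99 and 62.81 FPKM in ND livers. Its log2 fold change of 0.24 had a 95% confidence interval of -0.07 to 0.56. NR1H4 was at 35.77, 27.79 and 23.48 FPKM in HFD livers and at 27.41, 20.92 and 25.15 FPKM in ND livers, with a log2 fold change of 0.22 (95% confidence interval -0.20 to 0.65). Both intervals include 0, and both lie mostly above it.

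The repressor NR0B2 and the receptor FGFR4 had the lower mean in HFD. NR0B2 was at 25.67, 22.96 and 41.00 FPKM in HFD livers and at 31.52, 38.34 and 45.08 FPKM in ND livers. HFD livers 1 and 2 lay below all ND livers, and HFD liver 3 lay among them. The log2 fold change was -0.38 (95% confidence interval -0.93 to 0.17, adjusted p = 0.481 from limma). When 1 liver was left out, it ran from -0.62, without HFD liver replicate 3, to -0.22. FGFR4 showed the same layout, with 35.02, 36.70 and 51.79 FPKM in HFD livers and 51.15, 55.31 and 45.38 FPKM in ND livers. Its log2 fold change was -0.31 (95% confidence interval -0.71 to 0.10, adjusted p = 0.445). When 1 liver was left out, it ran from -0.48, without HFD liver replicate 3, to -0.21. Its partner KLB averaged 7.12 ± 2.54 FPKM in HFD and 5.99 ± 1.28 FPKM in ND livers (SD, n = 3 each), well below FGFR4 in every liver.

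The order of the 6 genes by mean FPKM differed between the diets. In HFD livers it was BAAT, CYP7A1, ABCB11, FGFR4, NR0B2 and NR1H4, and in ND livers it was BAAT, FGFR4, NR0B2, ABCB11, NR1H4 and CYP7A1. CYP7A1 was second in HFD and last in ND. In HFD livers, CYP7A1 was above ABCB11 in each of the 3 livers without overlap of the ranges, and all other neighbours overlapped. In ND livers, BAAT, FGFR4, NR0B2 and ABCB11 followed each other without overlap, while ABCB11 and NR1H4 overlapped, as did NR1H4 and CYP7A1. Ratios within a liver do not depend on how the samples were scaled, and the following were chosen after the values had been seen and were not tested. The ratio of CYP7A1 to NR0B2 was 2.74, 2.60 and 1.64 in HFD livers 1, 2 and 3, against 0.823, 0.247 and 0.124 in ND livers 1, 2 and 3. CYP7A1 stood at 0.137 to 0.148 of the level of CYP27A1, the enzyme that opens the alternative pathway, in HFD livers, against 0.00831 to 0.0444 in ND livers.

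Among the 46 entries of the lists tested in liver, 14 had an unadjusted p under 0.05 with the higher level in HFD and 2 with the lower level in HFD, beside 9.93% higher and 3.94% lower among all genes tested. None of them passed the adjusted threshold (0 entries, limma with Benjamini-Hochberg adjustment). The median log2 fold change was 0.24 for the lists and 0.07 for all genes. The lists were chosen with earlier results of these data known, so these shares and medians describe the lists and do not test them. With quantile normalization, 13 entries were higher and 3 lower, beside 7.17% and 6.72% of all genes. For 11 of the 16 entries the unadjusted p stayed under 0.05 whichever liver was left out, and for CYP8B1, HSD17B4, SCP2, SLC51A and NR1H3 it did not. In the fit shared by all 12 samples it was under 0.05 for 11 of the 16, and above it for ACOX2, CYP27A1, SLCO1A2, SLCO1B1 and SLC51A. In 14 entries every HFD liver was above every ND liver and in 2 every HFD liver was below, beside 14.3% and 5.82% of all genes.

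**Figure D2:**
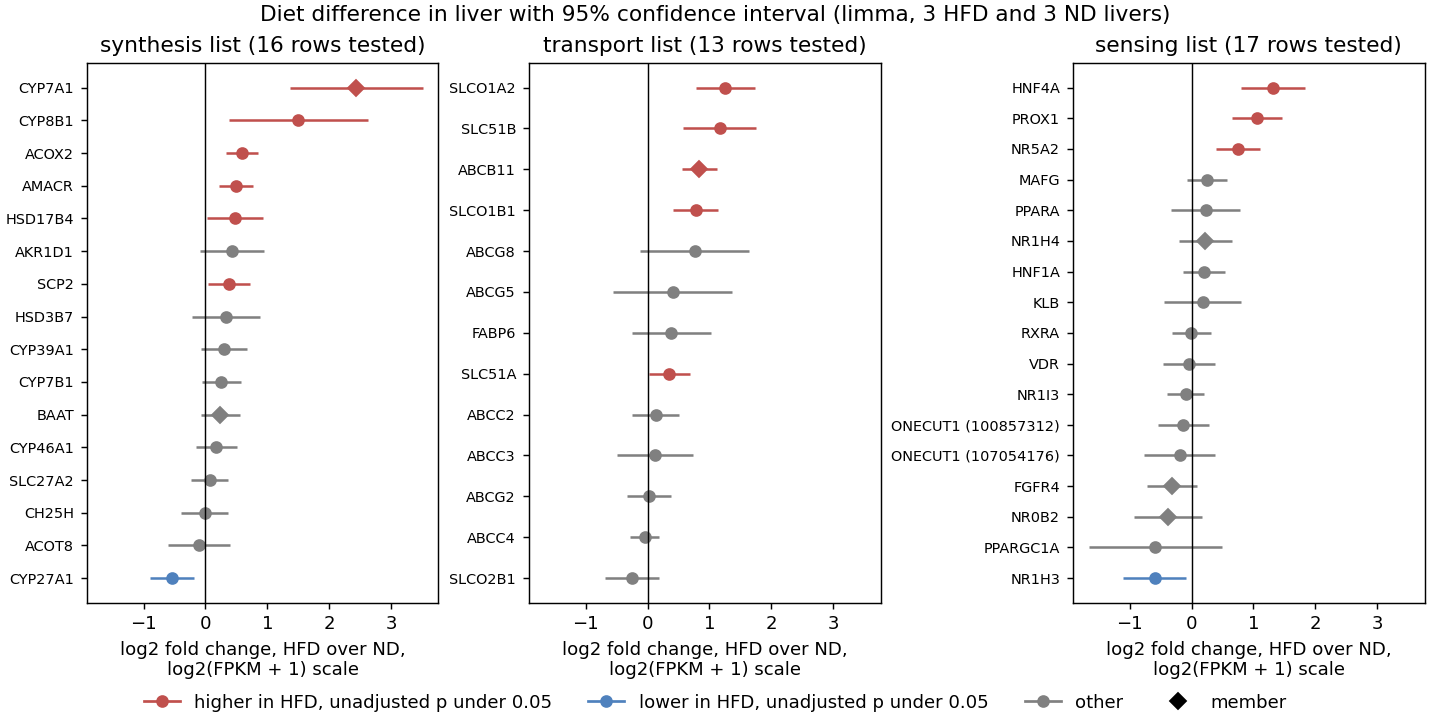
Log2 fold change of HFD over ND in liver, on the log2(FPKM + 1) scale, for the tested genes of the synthesis, transport and sensing lists. Points are estimates, bars are 95% confidence intervals and diamonds mark the 6 members. In the sensing list, NR1H4, NR0B2 and FGFR4 lie on both sides of 0, and HNF4A, PROX1 and NR5A2 have intervals above 0.

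Within synthesis, 6 of 16 genes had an unadjusted p under 0.05 upward and 1 downward. CYP8B1, the 12 alpha-hydroxylase that leads to cholic acid, was at 69.09, 113.98 and 169.24 FPKM in HFD livers and at 37.57, 71.97 and 20.37 FPKM in ND livers, with overlap between HFD liver 1 and ND liver 2 (log2 fold change 1.50, unadjusted p = 0.015, adjusted p = 0.290, limma). Several of these genes act in the peroxisomal shortening of the side chain. ACOX2, an oxidase of that step, averaged 81.8 ± 2.67 FPKM in HFD and 54.2 ± 3.85 FPKM in ND livers (SD, n = 3 each), a log2 fold change of 0.59 (adjusted p = 0.160). AMACR, the racemase ahead of it, averaged 36.3 ± 0.410 FPKM in HFD and 25.6 ± 2.59 FPKM in ND livers (0.49, adjusted p = 0.209). HSD17B4 and SCP2, which act later in the same route, had log2 fold changes of 0.48 and 0.38, with a wide range for HSD17B4 in ND livers (48.15 to 77.75 FPKM). ACOT8, a peroxisomal thioesterase, overlapped between the diets, with a log2 fold change of -0.10 (95% confidence interval -0.61 to 0.40). CYP27A1 went the other way. It was at 475.51, 425.21 and 489.84 FPKM in HFD livers and at 584.60, 772.81 and 671.73 FPKM in ND livers, lower in every HFD liver (log2 fold change -0.54, standard error 0.15, adjusted p = 0.261).

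Within transport, 5 of 13 genes had an unadjusted p under 0.05 upward and 0 downward. Besides ABCB11, these were SLCO1A2 and SLCO1B1, uptake carriers for organic anions, and SLC51A and SLC51B, whose products form a joint carrier on the blood side of the cell. SLCO1A2 was at 181.56, 181.48 and 168.59 FPKM in HFD livers and at 78.94, 53.60 and 94.33 FPKM in ND livers (log2 fold change 1.25, standard error 0.20, adjusted p = 0.139, limma). SLCO1B1, gene 418187, which RefSeq lists as SLCO1B3, averaged 268 ± 31.7 FPKM in HFD and 156 ± 21.8 FPKM in ND livers (0.78, adjusted p = 0.177). SLC51B was at 104.03, 88.13 and 79.87 FPKM in HFD livers and at 27.04, 54.80 and 41.90 FPKM in ND livers (1.17, adjusted p = 0.200), whereas SLC51A averaged 240 ± 19.4 FPKM in HFD and 189 ± 25.5 FPKM in ND livers (0.35, adjusted p = 0.351). The ratio of SLC51B to SLC51A was 0.448, 0.336 and 0.353 in HFD livers and 0.169, 0.276 and 0.202 in ND livers. ABCC2, a canalicular pump for conjugated anions, had a log2 fold change of 0.13 (95% confidence interval -0.25 to 0.51).

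Within sensing, 3 of 17 entries had an unadjusted p under 0.05 upward and 1 downward, and the median log2 fold change was 0.00. HNF4A, a hepatocyte transcription factor that activates CYP7A1 in mammals, was at 20.83, 18.14 and 27.85 FPKM in HFD livers and at 9.83, 6.08 and 9.10 FPKM in ND livers (log2 fold change 1.32, standard error 0.22, adjusted p = 0.139, limma). NR5A2, the receptor LRH-1, which NR0B2 represses in mammals, was at 12.54, 12.26 and 16.81 FPKM in HFD livers and at 7.56, 8.19 and 7.63 FPKM in ND livers (0.75, adjusted p = 0.182). PROX1, a corepressor of both in mammalian hepatocytes, was at 15.93, 14.41 and 21.52 FPKM in HFD livers and at 8.01, 6.90 and 8.17 FPKM in ND livers (1.06, adjusted p = 0.139). All 3 had every HFD liver above every ND liver. Their adjusted p-values in the limma fit shared by all 12 samples were 0.0469 for HNF4A, 0.0345 for NR5A2 and 0.0181 for PROX1. That fit takes its spread from the fat samples too, where HNF4A did not exceed 0.04 FPKM outside ND fat replicate 2. Of the 46 listed entries it called 4, namely these and CYP7A1. In the same fit the adjusted p was 0.302 for SLCO1A2, 0.384 for ACOX2, 0.581 for SLCO1B1 and 0.721 for CYP27A1. NR1H3 was at 27.89, 33.94 and 41.45 FPKM in HFD livers and at 68.87, 46.87 and 43.53 FPKM in ND livers, lower in every HFD liver (-0.60, adjusted p = 0.316).

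**Figure D3:**
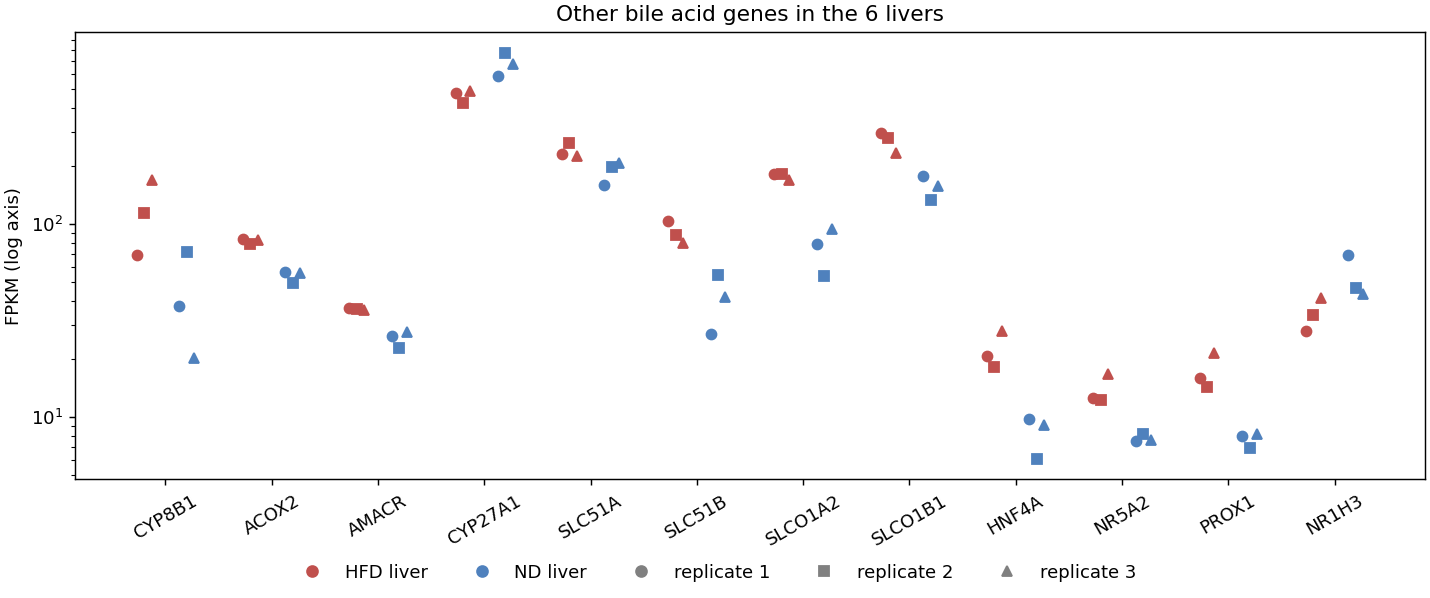
FPKM on a log axis of 12 other bile acid genes in 3 HFD and 3 ND livers. The genes were chosen because they had an unadjusted p under 0.05 between the diets in liver (limma). HSD17B4 and SCP2, which also had it, are not shown, nor are the listed genes that did not. Each point is 1 liver and its shape gives the replicate number. CYP27A1 and NR1H3 lie lower in the HFD livers, CYP8B1 overlaps between the diets, and the other 9 genes lie higher in the HFD livers.

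Markers of the cells in liver were set beside these differences. Of 7 hepatocyte markers, 0 had an unadjusted p under 0.05 and 0 separated the diets, with a median log2 fold change of 0.12. In 6 of the 7 the log2 fold change was positive, up to 0.58 for FGG (unadjusted p = 0.092 from limma), and APOA1 had -0.21. The summed FPKM of 4 macrophage markers was 381 to 707 in HFD livers and 589 to 1040 in ND livers. CD74 made up most of every sum, and all 4 markers overlapped between the diets. C1QA, C1QB and MARCO were lower in ND livers 2 and 3 than in HFD livers 1 and 3, and lowest in HFD liver 2. C1QA, for example, was at 33.26, 9.68 and 25.15 FPKM in HFD livers and at 80.02, 15.15 and 12.08 FPKM in ND livers. The sum and each of the 4 markers were highest in ND liver replicate 1, which was also the ND liver with the most CYP7A1. The sum of 5 lymphocyte markers was 72.9 to 120 FPKM in HFD livers and 84.1 to 602 FPKM in ND livers, where IGLL1 made up most of it. IGLL1, an immunoglobulin light chain gene of B cells, averaged 45.6 FPKM in HFD and 320 FPKM in ND livers (log2 fold change -2.36, unadjusted p = 0.020 from limma). The other 4 had an unadjusted p above 0.05. Of these, CD3D, CD3E and PTPRC had positive log2 fold changes (0.33, 0.18 and 0.56), and CD79B had -0.14. Of the cholangiocyte list, the defining gene KRT19 was at 2.04 to 4.01 FPKM in HFD livers and at 2.16 to 3.46 FPKM in ND livers. The 5 fibroblast markers all had a lower mean in HFD livers (median log2 fold change -0.38, 0 of 5 with an unadjusted p under 0.05), and their sum was 95.9 to 150 FPKM in HFD livers and 107 to 186 FPKM in ND livers. Of 6 adipocyte markers, 2 had an unadjusted p under 0.05, in opposite directions and with overlap between the diets. PLIN1, a lipid droplet coat protein, had a log2 fold change of 0.98 (unadjusted p = 0.022 from limma), and CIDEC, which acts in lipid droplet fusion, had -1.10 (unadjusted p = 0.025), while ADIPOQ, which defines adipocytes, averaged 0.493 FPKM in HFD and 0.58 FPKM in ND livers. The part of these cells in the diet differences was not tested.

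In abdominal fat, every one of the 6 genes had the lower mean in HFD and none passed the test (0 of 6, smallest adjusted p = 0.765, and 0 of 6 at an unadjusted p under 0.05, limma over 15412 genes). Among all genes tested in fat, 0.00649% passed the adjusted threshold, and 2.91% were higher and 3.4% lower at an unadjusted p under 0.05. Of the 15412 genes, 6837 had a positive log2 fold change, so a lower level in HFD was common. CYP7A1 was at 0.03, 0.03 and 0 FPKM in HFD fat and at 0.03, 1.53 and 0.03 FPKM in ND fat. NR1H4 was at 0.03, 0.06 and 0.03 FPKM in HFD fat and at 0.03, 1.18 and 0.03 FPKM in ND fat. NR0B2 was at 0, 0.03 and 0.05 FPKM in HFD fat and at 0.08, 1.08 and 0.08 FPKM in ND fat. For each of these genes a single library, ND fat replicate 2, held nearly all of the signal.

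That library also carried hepatocyte markers. ALB, TTR, FGA, FGB, FGG and AHSG stood there at 4.15% to 6.31% of their mean in ND livers, and in the other 5 fat samples none of them exceeded 69.96 FPKM. In the same library NR1H4 was at 4.82% of its ND liver mean, BAAT at 3.53%, NR0B2 at 2.82%, ABCB11 at 6.91%, FGFR4 at 6.92% and CYP7A1 at 11.2%. The percentage of FGFR4 does not set this library apart, since FGFR4 was at 2.79 to 3.33 FPKM in the other 5 fat samples. ABCB11 was at 0.52 to 1.46 FPKM in those 5 samples. The seventh marker, APOA1, was at 1526 FPKM there, within the 575 to 2287 FPKM of the other fat samples. Without ND fat replicate 2, CYP7A1, NR1H4 and NR0B2 were below the filter of a mean of 0.1 FPKM, and NR1H4 averaged 0.04 FPKM in HFD and 0.03 FPKM in ND fat. The log2 fold changes of the other 3 were then -0.27 for ABCB11, -0.11 for FGFR4 and -0.07 for BAAT. FGFR4 was at 2.79, 3.00 and 3.00 FPKM in HFD fat and at 3.13, 3.50 and 3.33 FPKM in ND fat, lower in every HFD sample (log2 fold change -0.14, 95% confidence interval -0.40 to 0.13). NR0B2 was also lower in every HFD sample, but only by 0.05 against 0.08 FPKM at the closest, near the resolution of 2 decimals. Among all genes tested, 8.14% were lower and 5.33% higher in every HFD sample. ABCB11 was at 0.84, 0.76 and 0.52 FPKM in HFD fat and at 1.46, 1.92 and 0.71 FPKM in ND fat, and BAAT was at 0.48, 0.48 and 0.89 FPKM in HFD fat and at 0.92, 2.33 and 0.47 FPKM in ND fat.

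**Figure D4:**
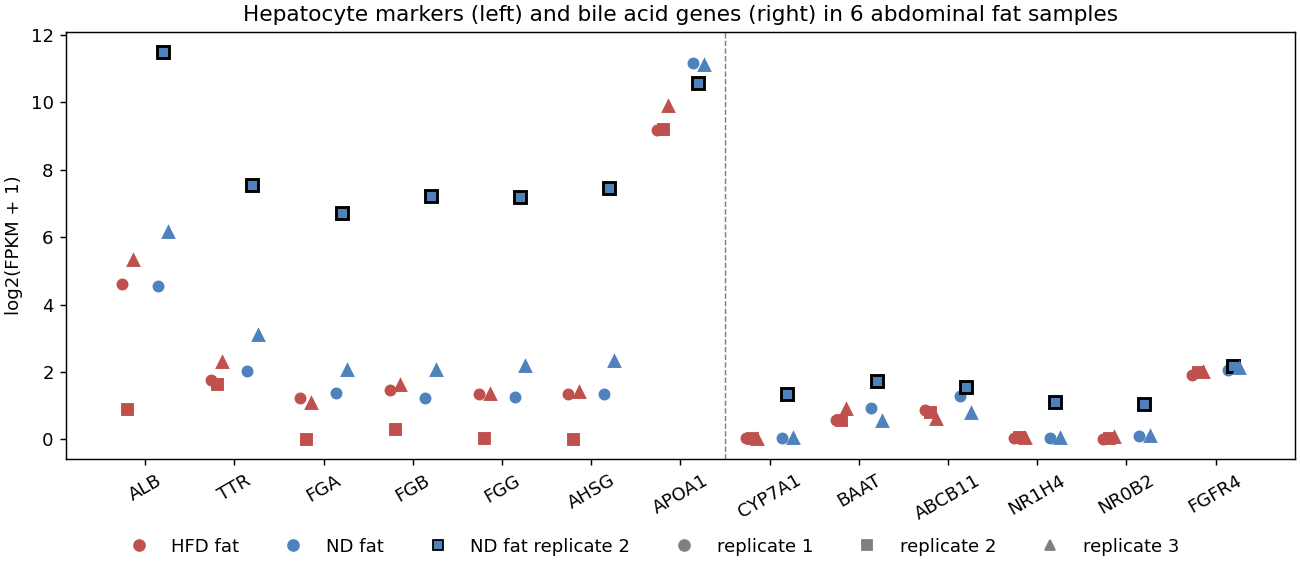
Log2(FPKM + 1) of 7 hepatocyte markers and the 6 bile acid genes in 3 HFD and 3 ND abdominal fat samples. Each point is 1 sample, and the outlined square is ND fat replicate 2. It is the highest sample for every gene shown except APOA1.

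An interaction term over all 12 samples asked whether liver and fat differed in their diet difference. The diet difference in liver minus that in fat was 2.88 on the log2 scale for CYP7A1 (standard error 0.65, unadjusted p = 0.00099, adjusted p = 0.192) and 1.28 for ABCB11 (standard error 0.25, unadjusted p = 0.00039, adjusted p = 0.169, limma with Benjamini-Hochberg adjustment). These fits treated the samples as independent, although liver and fat came from the same birds by the study's methods. With same-numbered liver and fat samples taken as 1 bird, a replicate block, the adjusted p was 0.0987 for CYP7A1 and 0.0835 for ABCB11, and 3 genes in place of 1 passed the adjusted threshold. Without ND fat replicate 2 and with no block, the values of CYP7A1 and ABCB11 were 2.45 (adjusted p = 0.230) and 1.11 (adjusted p = 0.206). The other 4 genes had differences from -0.17 for FGFR4 to 0.64 for BAAT, with adjusted p-values of at least 0.464. Outside ND fat replicate 2, CYP7A1 did not exceed 0.03 FPKM in fat, so its value without that sample nearly restates the liver difference of 2.44. For CYP7A1, NR1H4 and NR0B2, with almost no signal in fat, the term cannot decide whether the tissues respond differently. Among all genes, 9.21% had a larger and 3.39% a smaller diet difference in liver at an unadjusted p under 0.05, and 0.00648% passed the adjusted threshold.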

How the data were processed

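RNA of liver and abdominal fat from 3 HFD and 3 ND birds was sequenced on a BGISEQ-500 instrument. The deposited FPKM values, 1 per gene and sample and rounded to 2 decimals, were made by the authors. Per the labels, the processing notes list HISAT2 2.0.4, Bowtie2 2.2.5 and RSEM 1.2.12, and the genome build is not given in the sources used here. No counts come with these values, so depth per sample and counting error are unknown.

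Groups and replicate numbers came from the sample titles. With limma 3.58.1 in R 4.3.3, log2(FPKM + 1) was fitted for the genes that averaged 0.1 FPKM or more across the samples fitted. Diets were compared within each tissue (6 samples), and tissues and the interaction in 12 samples without matching tissues by bird (both came from the same birds, but no label ties the numbers to them), with a trend in the moderated variances, two-sided tests and Benjamini-Hochberg adjustment over all genes tested. Calls used an adjusted p of at most 0.05. The fits were also run on simulated data with independent samples and changes planted only in genes of higher level. That run does not cover genes with almost no signal or tissues from the same bird, and its outcome is not reported here. Alternatives were the threshold of the study's methods (log2 fold change of 0.5 or more in size, p up to 0.001), pseudocounts of 0.1 and 0.01, other filters, rescaling to TPM, quantile normalization, sample weights, the replicate number as a block, a single fit of all samples and leaving out each sample.

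The members and lists were chosen with earlier results of these data known. Named genes were the 6 members, listed genes with an unadjusted p under 0.05 in liver or sharing a step with a member, genes called higher in fat, which were chosen after their values were seen, and, for each member, the 3 genes with the highest correlation over the 6 livers. For FGFR4, 1 of these is not reported here. RefSeq gene names are from assembly GRCg7b.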

Additional observations from a re-analysis of the deposited data

How the results depend on the processing

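For the 6 genes, 418 of 425 values under the alternatives kept their direction and their side of the adjusted threshold of 0.05. The exceptions were CYP7A1 in liver, which passed in the single fit of all 12 samples (2.44, adjusted p = 0.0415), and the interaction of NR0B2, 0.01 in the report, which was -0.13 with quantile normalization, -0.14 with sample weights and -0.31 to 0.17 when 1 sample was left out, lowest without ND fat replicate 2. The cause was not tested. The single fit takes its spread from the fat samples too, where CYP7A1 was almost absent outside ND fat replicate 2. Called genes in liver numbered 0, against 4 with a pseudocount of 0.1 or 0.01, 6 with a filter of 1 FPKM, 7 after rescaling to TPM, 12 with sample weights, 111 in the single fit of all samples, 85 at the threshold of the study's methods and 0 to 1 when 1 liver was left out. In fat they numbered 1, against 2 with either pseudocount and in the single fit, 14 at the methods' threshold and 0 to 4 when 1 sample was left out. The interaction had 1 called gene, against 2 with a pseudocount of 0.01 or no filter, and 0 to 6 when 1 sample was left out. Without adjustment, 1441 genes were higher and 571 lower in HFD liver, against 1041 and 975 with quantile normalization.

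With the replicate number as a block, 0 genes were called in liver, 0 in fat and 3 for the interaction. No call of the 6 genes changed. Within a tissue the block pairs HFD and ND samples of the same number, which came from different birds. For the interaction and the tissue comparison it joins the liver and fat samples of the same diet and number. HFD and ND livers of the same number deviated from their group means with correlations of -0.04 to 0.06 across 12537 genes. Livers and fat samples of 1 diet correlated at 0.0716 to 0.242 where they shared a number and at -0.20 to -0.00 where they did not, so each of the 6 livers was closest to the fat sample of its own number. This is a hint that the numbers mark birds. No label says so and 1 of the 6 pairs was under 0.1, so the block stayed an alternative. With it, 12466 genes differed between the tissues, against 12162. With 3 birds per group and the spread of BAAT and NR0B2 in liver, their diet differences could not be told from 0.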

Other observations

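For each member, the genes most like it over the 6 livers were listed by Pearson's r of log2(FPKM + 1) among 9627 genes with a symbol and a mean of at least 1 FPKM. With 6 samples and this many genes, values near 1 arise easily, and the r of genes that differ between the diets holds the diet difference. For CYP7A1 these genes were NEDD4, DENND2C and CLIP4 (r = 0.993, 0.993 and 0.988), and for ABCB11 they were PCGF3, BUB1 and TMED5 (r = 0.996, 0.994 and 0.993). NR0B2 was followed most closely by WDR55, SOS2 and BCL2L13 (r = 0.991, 0.982 and 0.978) and FGFR4 by PSMG2 and PTPN2 (r = 0.990 and 0.985). For NR1H4 they were CNDP2, FIBP and GCNT7 (r = 0.986, 0.984 and 0.980) and for BAAT RSRC1, ARHGAP8 and TEX10 (r = 0.989, 0.988 and 0.985). None of these genes, the members aside, is in the lists of bile acid genes.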
